A study of Mus musculus with 2 samples.

Results

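AMP-activated protein kinase (AMPK) was followed through the 8 genes that encode its subunits and its upstream kinase, Prkaa1, Prkaa2, Prkab1, Prkab2, Prkag1, Prkag2, Prkag3 and Stk11. All probe sets annotated to exactly 1 of these symbols were taken, which gave 18 probe sets of the 34945 that carry a single symbol, and 8 genes of 18193. The tissue was skeletal muscle of male mice aged 3 months, described by the strain label as 129 embryonic stem cells backcrossed for 4 generations onto C57BL/6. Mice null for Jhdm2a, a demethylase of histone H3 lysine 9 now named Kdm3a, were compared with wild-type mice on 1 Affymetrix Mouse Genome array per genotype, each loaded with RNA of 3 mice combined before labelling. The sources used here do not say which muscle was taken, how the null allele was made or whether the wild-type mice were littermates.

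AMPK is a heterotrimer that senses a fall in cellular energy. A catalytic alpha subunit is held by a scaffold beta subunit to a gamma subunit that binds AMP, ADP or ATP, and LKB1, the product of Stk11, phosphorylates the activation loop of alpha. Active AMPK shuts down lipid synthesis and favours fatty acid oxidation and glucose uptake, and in skeletal muscle it responds to contraction. The alpha2, beta2 and gamma3 isoforms are known as the ones that skeletal muscle uses most, while alpha1, beta1 and gamma1 are made in most tissues and gamma2 is known for its inherited variants in heart disease.

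Values are MAS5 signals on a linear scale. A probe set was counted as measured when its signal exceeded a floor of 182 on both arrays, a level under which 60% of the signals fell, and the ratio of a gene is the mean over its measured probe sets on the log2 scale. Each genotype has a single array, so differences have no replicate check and no test was possible. Higher and lower describe these arrays only, and the number of arrays limits the precision. Probe sets of the same gene differed in log2 ratio with an SD of 0.29 over the 3719 genes with more than 1 measured probe set, and the log2 ratios of 18 hybridisation controls averaged -0.02 ± 0.09 (SD). Neither measures variation between mice. The probe-set SD is a spread between probe sets of 1 gene and leaves out any error that they share, so it is not the full technical error of a ratio. The Kdm3a probe set read 488 on the array labelled null and 406 on the array labelled wild-type. The transcript was thus not lower under the null label. The sources used here do not place its probe set relative to the disruption, so it checks nothing about the labels, and the arrays are called null-labelled and wild-type-labelled. Sums over genes below serve only to set the same genes side by side, each by its brightest probe set on that array. For some genes this probe set differs between the arrays. Signals of different probe sets depend on probe sequence, and isoforms are not ranked against each other by them. The abundance of one isoform relative to another therefore cannot be read from these arrays. What can be read is whether each isoform gave a signal above the floor and how that signal differed between the arrays.

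All 8 genes had at least 1 measured probe set, and 16 of the 18 probe sets were measured. Prkag2, the gamma2 subunit, was 2.21-fold lower on the null-labelled array and was the 1 member past 1.5-fold. Prkab2, the beta2 subunit, was 1.44-fold higher, just short of that threshold. The other 6 genes had log2 ratios between -0.22 and 0.13, smaller in size than the probe-set SD of 0.29. Across all 9696 measured genes, 6.34% were at least 1.5-fold lower and 3.38% at least 1.5-fold higher, against 1 and 0 of the 8 members. The members' median log2 ratio was -0.06, beside 0.04 for all measured genes, with 4 members above 0 and 4 below. With the floor at the 75th percentile, which leaves 5 members, that median was 0.04, so it is not read as a direction.

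**Figure D1:**
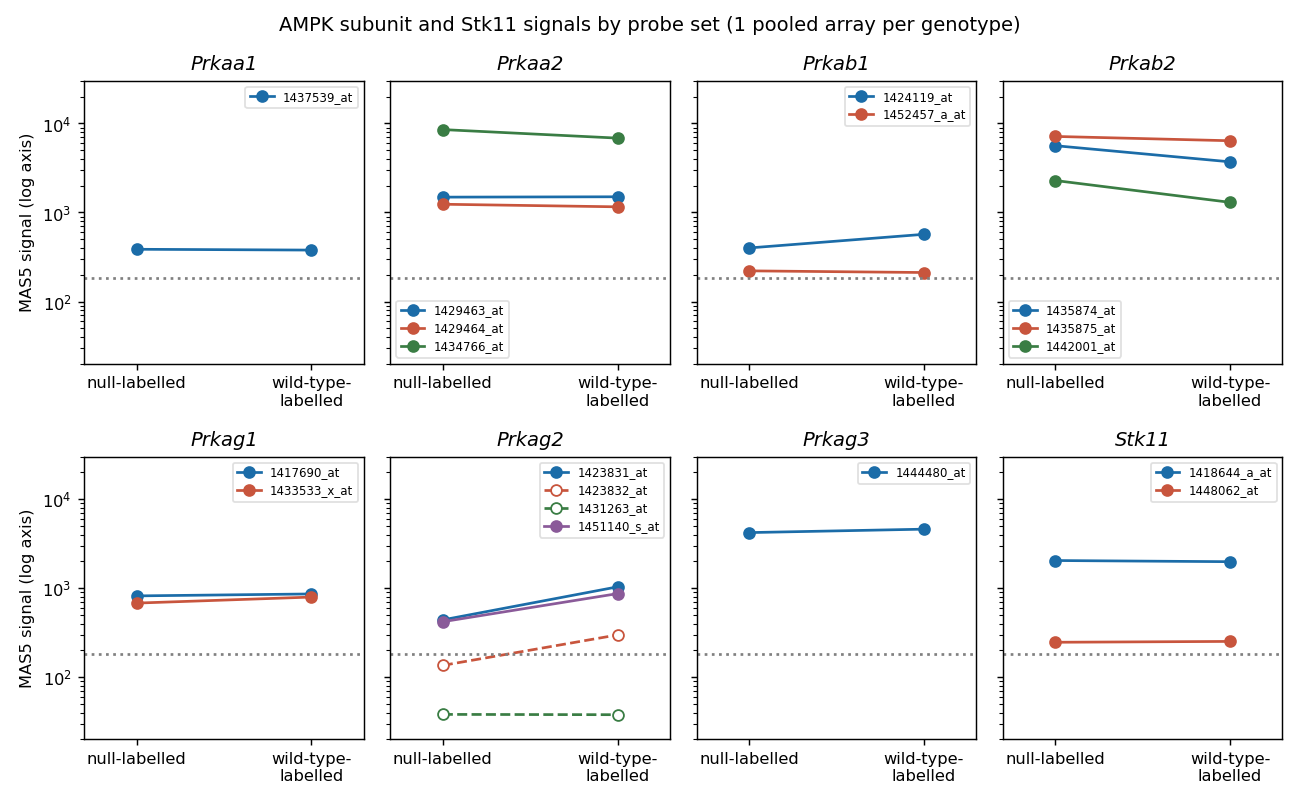
MAS5 signal (log axis) of the 18 probe sets on the null-labelled array (left in each panel) and the wild-type-labelled array (right), 1 panel per gene, with the floor of 182 dotted. Open symbols and dashed lines mark the 2 Prkag2 probe sets not above the floor on both arrays, and 3 of the 4 Prkag2 lines lie lower on the null-labelled array while all 3 Prkab2 lines lie higher.

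The catalytic subunits differed little. Prkaa1, which encodes alpha1, had 1 probe set, 1437539_at, with a signal of 386 on the null-labelled array and 378 on the wild-type-labelled array, a log2 ratio of 0.03. Prkaa2, which encodes alpha2, had 3 measured probe sets. Probe set 1434766_at read 8544 on the null-labelled array and 6850 on the wild-type-labelled array, a log2 ratio of 0.32. Probe set 1429464_at read 1238 on the null-labelled array and 1158 on the wild-type-labelled array, a log2 ratio of 0.10. Probe set 1429463_at read 1488 on the null-labelled array and 1502 on the wild-type-labelled array, a log2 ratio of -0.01. The 3 probe sets therefore did not share a direction, and the mean for Prkaa2 was 0.13 ± 0.17 (SD of 3 probe sets).

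The scaffold subunits had ratios of opposite sign. Prkab2 was higher on the null-labelled array in each of its 3 probe sets. Probe set 1442001_at read 2288 on the null-labelled array and 1301 on the wild-type-labelled array, 1.76-fold higher. Probe set 1435874_at read 5634 on the null-labelled array and 3710 on the wild-type-labelled array, 1.52-fold higher. Probe set 1435875_at, annotated to the same accession as 1435874_at, read 7156 on the null-labelled array and 6402 on the wild-type-labelled array, 1.12-fold higher. The size of the difference thus varied with the probe set, and the brightest gave the smallest, so the mean of 0.53 ± 0.33 (SD of 3 probe sets) was 0.16 when the brightest probe set alone was used. Of all measured genes, 495 (5.11%) had a higher ratio than Prkab2. All probe sets above 0 is common among genes with 3 or more measured probe sets, where 370 of 1294 (28.6%) had it.

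Prkab1, which encodes beta1, had 2 measured probe sets that disagreed. Probe set 1424119_at read 400 on the null-labelled array and 569 on the wild-type-labelled array, 1.42-fold lower. Probe set 1452457_a_at read 221 on the null-labelled array and 212 on the wild-type-labelled array, both close to the floor. The mean was -0.22 ± 0.40 (SD of 2 probe sets), which is less than its own spread. The log2 ratio of Prkab2 exceeded that of Prkab1 by 0.75.

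**Figure D2:**
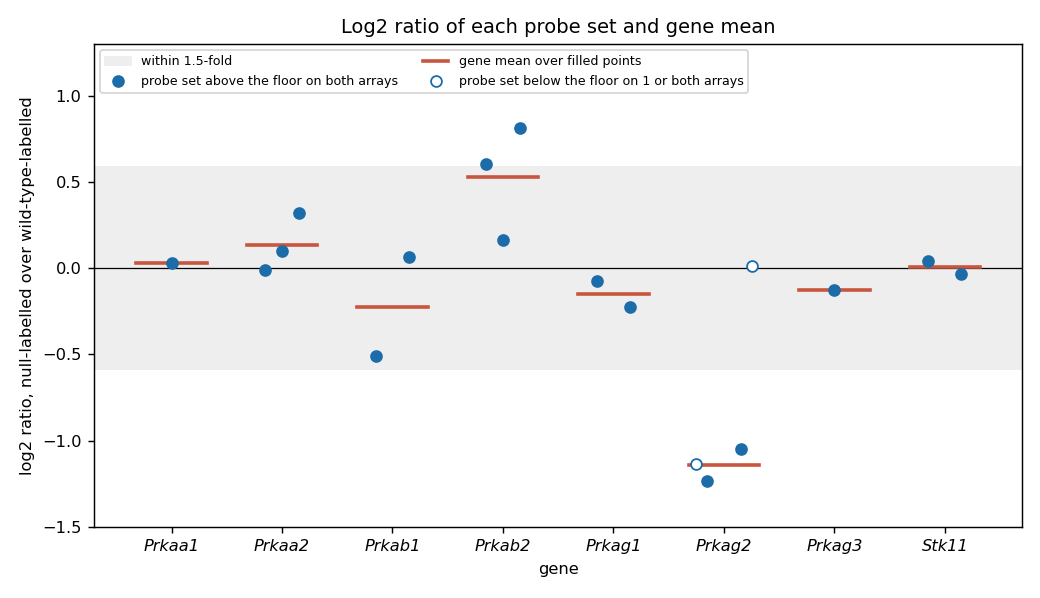
Log2 ratio, null-labelled over wild-type-labelled, of each probe set (points) and each gene (bars, mean over filled points), with the range within 1.5-fold shaded. Prkag2 lies at -1.14 with its 2 filled points close together, while the 3 points of Prkab2 run from 0.16 to 0.81 and the 2 points of Prkab1 lie on both sides of 0.

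Among the nucleotide-binding gamma subunits the difference was found in Prkag2. Probe set 1423831_at read 441 on the null-labelled array and 1037 on the wild-type-labelled array, 2.35-fold lower. Probe set 1451140_s_at read 420 on the null-labelled array and 870 on the wild-type-labelled array, 2.07-fold lower. These 2 probe sets gave a mean log2 ratio of -1.14 ± 0.13 (SD of 2 probe sets), larger in size than the probe-set SD of 0.29. A further probe set, 1423832_at, read 136 on the null-labelled array, under the floor, and 299 on the wild-type-labelled array, which makes it at least 1.64-fold lower when the floor stands in for the dim signal. The last, 1431263_at, read 38.2 on the null-labelled array and 37.9 on the wild-type-labelled array, far below the floor on both, and gives no fold. The 3 probe sets that read lower are annotated to 1 GenBank accession, so they report on the same transcript sequence and are not independent of each other.

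Of the 9696 measured genes, 181 (1.87%) had a lower ratio than Prkag2. A gene under the floor on 1 array only, such as the markers Ttr and S100a8 below, is not among them. Shares of all measured genes therefore leave out some of the largest differences in either direction. Among the 3719 genes with more than 1 measured probe set, 110 (2.96%) were at least 1.5-fold lower in every one, as Prkag2 was. Prkag1, which encodes gamma1, had log2 ratios of -0.07 in 1417690_at and -0.22 in 1433533_x_at. Its signals were 820 and 680 on the null-labelled array, against 862 and 795 on the wild-type-labelled array, and the mean was -0.15 ± 0.11 (SD of 2 probe sets). Prkag3, which encodes the gamma3 subunit of fast glycolytic fibres, had 1 probe set with a signal of 4215 on the null-labelled array and 4606 on the wild-type-labelled array, a log2 ratio of -0.13. The log2 ratio of Prkag2 was 0.99 below that of Prkag1 and 1.01 below that of Prkag3.

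**Figure D3:**
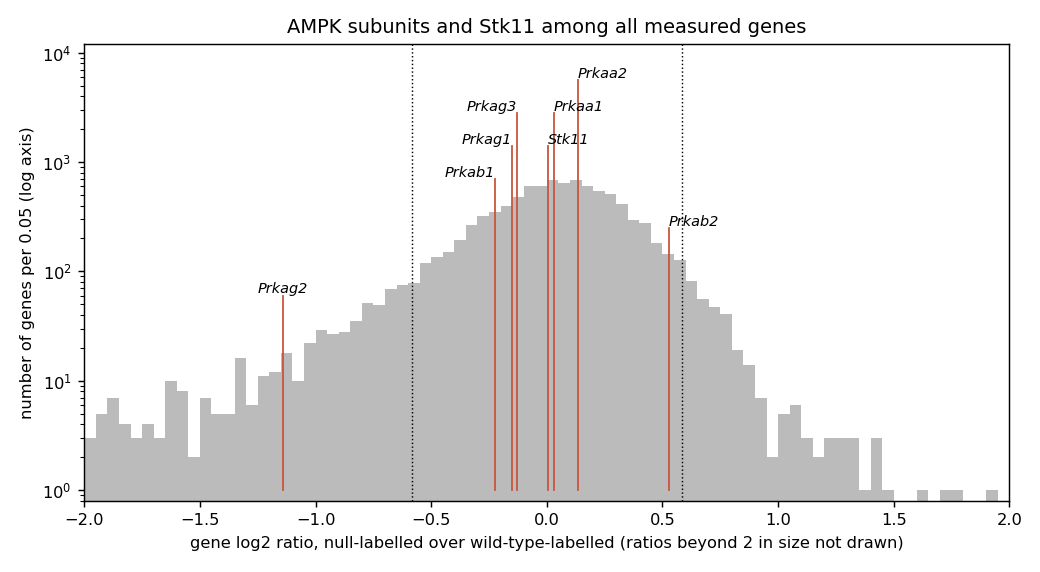
Number of measured genes (log axis) by log2 ratio, null-labelled over wild-type-labelled, in steps of 0.05, with the 8 members marked by red lines whose heights carry no value and the 1.5-fold limits dotted. Prkag2 at -1.14 lies in the lower tail, Prkab2 at 0.53 near the upper limit, and the other 6 members within the central mass.

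Prkag2 has 3 annotated start sites in RefSeq, which give protein isoforms of different length, and Prkab2 has 1. Windows of 250 bases before to 50 bases after each start are shown because these genes had the lowest and the highest ratio of the 8. All come from RefSeq on GRCm38.p6 and are written 5′ to 3′ on the gene's strand. Capitals mark matches, on either strand, to the GC box GGGCGG, the CCAAT box CCAAT, the TATA motif TATAAA, the E-box CACGTG or the nuclear receptor half-site AGGTCA, and no 2 different motifs overlapped. The Prkag2 windows lie on the minus strand of chromosome 5 at chr5:25100593-25100892, chr5:24995704-24996003 and chr5:24908460-24908759, and the Prkab2 window lies on the plus strand of chromosome 3 at chr3:97657962-97658261.
Prkag2 start 1: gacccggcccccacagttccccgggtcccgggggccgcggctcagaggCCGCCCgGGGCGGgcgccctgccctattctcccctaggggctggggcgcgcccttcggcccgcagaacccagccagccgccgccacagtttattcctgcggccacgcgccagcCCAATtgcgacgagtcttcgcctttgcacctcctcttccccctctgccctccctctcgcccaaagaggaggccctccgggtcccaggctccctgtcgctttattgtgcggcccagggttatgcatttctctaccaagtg
Prkag2 start 2: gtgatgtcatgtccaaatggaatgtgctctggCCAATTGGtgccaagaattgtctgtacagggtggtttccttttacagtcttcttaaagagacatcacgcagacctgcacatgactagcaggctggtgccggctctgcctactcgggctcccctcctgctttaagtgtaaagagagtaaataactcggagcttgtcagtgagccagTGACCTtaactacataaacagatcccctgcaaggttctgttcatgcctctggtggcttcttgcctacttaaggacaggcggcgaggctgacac
Prkag2 start 3: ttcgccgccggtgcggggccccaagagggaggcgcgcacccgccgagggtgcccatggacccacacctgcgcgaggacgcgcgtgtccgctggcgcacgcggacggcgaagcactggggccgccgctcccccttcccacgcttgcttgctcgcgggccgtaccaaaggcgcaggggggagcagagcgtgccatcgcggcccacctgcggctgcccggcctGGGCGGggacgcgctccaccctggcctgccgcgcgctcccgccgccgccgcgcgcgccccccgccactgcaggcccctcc
Prkab2 start: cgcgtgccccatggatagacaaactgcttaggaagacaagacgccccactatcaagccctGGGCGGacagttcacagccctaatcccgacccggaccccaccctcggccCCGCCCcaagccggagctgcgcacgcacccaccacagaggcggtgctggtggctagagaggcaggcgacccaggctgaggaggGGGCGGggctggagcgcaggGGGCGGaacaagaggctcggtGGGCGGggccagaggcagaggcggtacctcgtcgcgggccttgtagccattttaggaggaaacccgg

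The start sites of Prkag2 differ in these letters. The first holds 2 GC boxes and 1 CCAAT box at a GC content of 69.7%, the second holds no GC box but a pair of overlapping CCAAT matches and 1 half-site at 50.3%, and the third holds 1 GC box at 79.3%. The Prkab2 window holds 5 GC boxes and none of the other motifs at 68%. Of 32851 RefSeq promoter windows of the same length, 35.7% hold a GC box, 37.4% a CCAAT box, 13.6% the TATA motif, 7.15% the E-box and 16.3% the half-site, and the median GC content is 52.7%. A match describes the letters and is not a site of binding. Which of the Prkag2 start sites gave the transcripts detected was not tested.

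The upstream kinase was close to equal on both arrays. Stk11, the LKB1 gene, had a signal of 2046 on the null-labelled array and 1986 on the wild-type-labelled array in 1418644_a_at. Its dimmer probe set, 1448062_at, read 247 on the null-labelled array and 252 on the array labelled wild-type. The mean log2 ratio was 0.01 ± 0.05 (SD of 2 probe sets). LKB1 acts in a complex with a STRAD pseudokinase and the scaffold MO25, and the calcium-dependent kinase CaMKK2 and the kinase TAK1 can also phosphorylate AMPK. Of 6 measured genes among 7 such partners and kinases, 1 was at least 1.5-fold higher and 1 lower, beside 3.38% higher and 6.34% lower of all measured genes, with a median of 0.04. Strada, a STRAD gene, read 599 on the null-labelled array and 367 on the wild-type-labelled array in 1 measured probe set of 4, a log2 ratio of 0.71. Camkk2 had a mean of -0.73 ± 0.25 (SD of 3 probe sets). Its brightest probe set read 223 on the null-labelled array and 369 on the wild-type-labelled array. Its other measured probe sets read 183 and 191 on the null-labelled array, close to the floor of 182. Map3k7, which encodes TAK1, had 0.21 ± 0.25 (SD of 4 probe sets), and Cab39l, an MO25 gene, had 0.10.

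Kinases of the AMPK-related family had a median of -0.18 over 9 measured genes of 13, and of -0.03 over all 13 with no floor. Of the 9, 1 was at least 1.5-fold lower and 0 higher, beside 6.34% and 3.38% of all measured genes. Sik2, a salt-inducible kinase abundant in fat, was lowest at -1.36 ± 0.08 (SD of 2 probe sets), and its brighter probe set read 963 on the null-labelled array and 2582 on the wild-type-labelled array. Snrk, a sucrose non-fermenting related kinase, had -0.49 ± 0.07 (SD of 2 probe sets). Sik1 had -0.35 from 1 measured probe set of 2, and the microtubule affinity kinase gene Mark1 had 0.38 from 1 of 5.

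Genes for known AMPK substrates had a median of 0.05 over 25 measured of 26, with 4 at least 1.5-fold lower and 0 higher, beside 6.34% lower and 3.38% higher of all measured genes. The 4 were genes of lipid metabolism. Acaca, the acetyl-CoA carboxylase of fatty acid synthesis, read 702 on the null-labelled array and 5755 on the wild-type-labelled array, a log2 ratio of -3.03. Lipe, the hormone-sensitive lipase, read 639 on the null-labelled array and 5048 on the wild-type-labelled array, a log2 ratio of -2.98. Acacb, the carboxylase whose malonyl-CoA restrains fatty acid entry into mitochondria, read 2784 on the null-labelled array and 5768 on the wild-type-labelled array, a log2 ratio of -1.05. Srebf1, a transcription factor of lipogenesis, had -0.79. Each of these values comes from 1 measured probe set, and Lipe also stands in the adipocyte marker list. The other 21 lay within 1.5-fold.

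Phosphatases and other regulators of AMPK had a median of 0.15 over 12 measured genes of 15, and 1 was higher and 1 lower by 1.5-fold, beside the same 3.38% and 6.34% of all genes. The 1 higher gene was Ppp2r3a, a regulatory subunit of protein phosphatase 2A, at 0.61 ± 0.53 (SD of 3 probe sets). The 1 lower gene was Cidea, a lipid droplet protein that is also a brown adipocyte marker, at -5.21. Ppp1r3c, a glycogen-targeting subunit of protein phosphatase 1, had 0.58 ± 0.61 (SD of 2 probe sets). The phosphatase gene Ppm1b had 0.43 ± 0.39 (SD of 3 probe sets). For each of Ppp1r3c and Ppm1b the brightest probe set gave 0.15. Enzymes that set the adenine nucleotide pool had a median of 0.08 over 12 measured genes of 14, with 1 lower and 0 higher, again beside 6.34% and 3.38% of all genes. Ampd2, an AMP deaminase best known from liver and other non-muscle tissues, was the lower one at -0.74 ± 0.63 (SD of 2 probe sets). Adk, the adenosine kinase, had 0.48 ± 0.46 (SD of 2 probe sets), with 0.15 in its brightest probe set. Adsl, the adenylosuccinate lyase, had 0.39, and the nucleotidase Nt5c2 had -0.38.

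**Figure D4:**
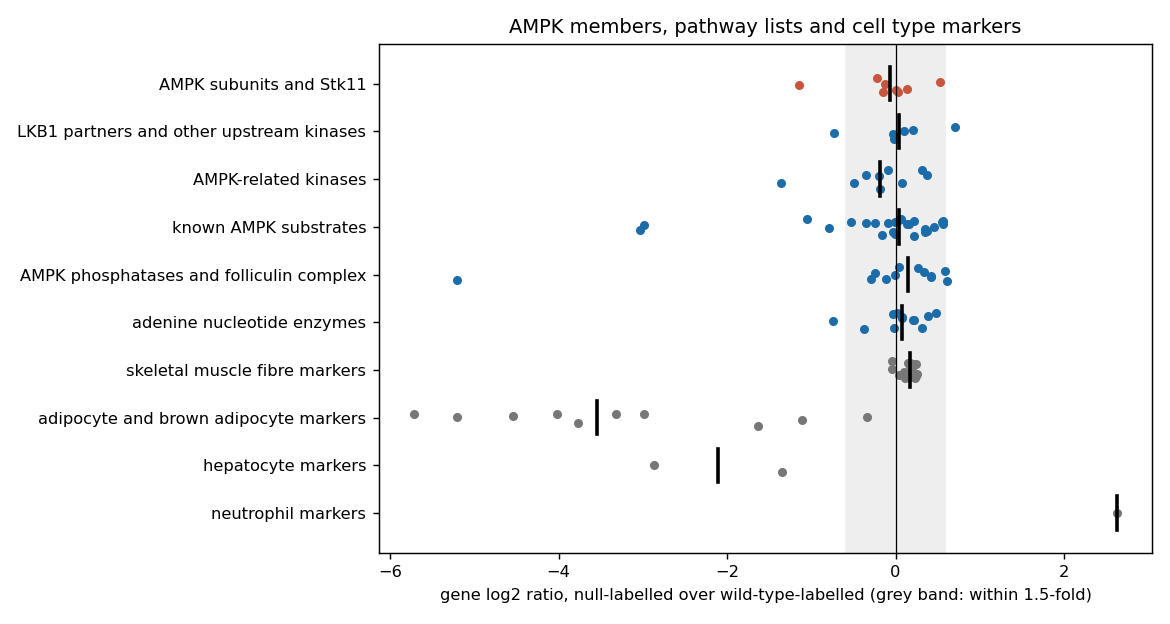
Gene log2 ratio, null-labelled over wild-type-labelled, for the 8 members (red), 5 lists around AMPK (blue) and 4 marker lists (grey), with 1 point per measured gene, a black bar at each median and the range within 1.5-fold shaded. Muscle fibre markers lie between -0.05 and 0.26, while 10 of 10 measured adipocyte markers lie below 0.

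Markers of other cell types differed between the same arrays. All 16 muscle fibre markers were measured. Their summed signal, taking the brightest probe set of each gene on each array, was 323184 on the null-labelled array and 287735 on the array labelled wild-type. Their median log2 ratio was 0.18, with a range of -0.05 to 0.26. The marker Mylpf, a fast myosin light chain, read 26156 on the null-labelled array and 21905 on the array labelled wild-type. The highest signal of any probe set was 30204 under the null label and 28234 under the wild-type label, and compression of ratios near such signals was not tested. Tnnt3 and Tnni2, fast troponins, had 0.10 and 0.24. Of 14 adipocyte and brown adipocyte markers, 13 had a probe set, of which 10 exceeded the floor on the null-labelled array and 13 on the array labelled wild-type. The 10 measured on both had a median log2 ratio of -3.55, with 9 at least 1.5-fold lower. The summed signal of all 13, dim ones included, was 16330 on the null-labelled array and 106259 on the array labelled wild-type. The largest term of the null-labelled sum was Fabp4, a fatty acid carrier of adipocytes that capillaries also make, which read 11296 on the null-labelled array and 25615 on the wild-type-labelled array. Fasn, the fatty acid synthase, and Ucp1, the uncoupling protein of brown fat, had -3.77 and -5.71. Of 14 hepatocyte markers, 2 exceeded the floor on the null-labelled array and 10 on the wild-type-labelled array, with summed signals of 3192 under the null label and 17610 under the wild-type label. Among them Ttr, the transthyretin gene, read 162 on the null-labelled array and 3708 on the array labelled wild-type. The cytochrome P450 gene Cyp2e1 was the largest term of both hepatocyte sums. It read 1824 on the null-labelled array and 4643 on the wild-type-labelled array, a log2 ratio of -1.35. Alb, the serum albumin gene, read 361 on the null-labelled array and 2635 on the wild-type-labelled array. Of 11 neutrophil markers with a probe set, 9 exceeded the floor on the null-labelled array and 1 on that labelled wild-type, with summed signals of 8976 under the null label and 1118 under the wild-type label. The calprotectin genes S100a8 and S100a9 read 2356 and 2161 under the null label, against 92.5 and 81.9 under the wild-type label, and the granule gene Ngp had a log2 ratio of 2.63. No marker was listed at 0. In pooled tissue RNA, fewer cells of a type and less RNA per cell cannot be told apart. The part of fat, liver or blood RNA in the ratios of Prkag2, Sik2, Acaca, Acacb and Ampd2 was not tested.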

How the data were processed

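Total RNA of 2 muscle pools was hybridised to 2 arrays. The authors deposited linear MAS5 intensity values. MAS5 is the tool that the submitters' processing notes list, without a version. Both deposited columns had a 2% trimmed mean of 500.003, so scaling them to a common trimmed mean left them unchanged. 0 columns belonged to other samples. No detection calls were used, and a signal floor took their place. The platform annotation gave a single symbol to 34945 of 45037 non-control probe sets and several to 932, and 9160 are unnamed here. RefSeq identifiers on GRCm38.p6 renamed 0 symbols.

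Groups came from the source labels. The members, the lists and the 1.5-fold threshold were chosen with earlier results of these data known. Lists held 128 genes, of which 122 had a probe set with a single symbol. Named were all members, the 4 measured genes of each pathway list with the log2 ratios largest in size, whatever the sign, and the 3 brightest markers of each marker list. Adss1 was matched through its older symbol Adssl1. With 2 arrays each gene has 1 ratio, so no genes of like pattern are named. The calculation was tested on simulated data. Python 3.11.15, pandas 2.3.3, NumPy 2.4.6 and statsmodels 0.14.6 were used. The 10 alternatives covered scaling (deposited values, quantile, median, loess with a span of 0.3), floors, choice of probe sets and an offset of 50.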

Additional observations from a re-analysis of the deposited data

How the results depend on the processing

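No paired analysis was possible because each genotype has 1 array and the result comes from no test. Of 163 recomputed values, 161 stayed within the probe-set SD of 0.29, or within 1.5 times for a count. Part of that tally was fixed in advance. Scaling left the deposited values unchanged, and members with 1 measured probe set could not move when the choice of probe sets changed. Members that a higher floor removed were left out of the tally. A value smaller in size than the SD could change sign and still be counted as having stayed. With the floor at the 75th percentile, a signal of 467, the number of members past 1.5-fold was 0, because Prkag2, Prkaa1 and Prkab1 then had no measured probe set and 5 members were left. From the brightest probe set alone Prkab2 had 0.16, Prkab1 had -0.51 and Prkaa2 had 0.32. The values of Prkab1 and Prkaa2 were then larger in size than 0.29. Prkag2 stayed lower in the 9 alternatives that measured it, from -1.23 to -0.85, the smallest with no floor, when 1431263_at, far below the floor on both arrays, entered at 0.01. Prkaa1 changed sign in 1 alternative and Stk11 in 2, so neither has a direction. The members' median was 0.04 with the higher floor, and list medians near 0 also changed sign. That of the upstream kinases was -0.07 with no floor and below 0 in other alternatives too. Substrates had -0.04 and adenine nucleotide enzymes -0.01 after loess. The AMPK-related median was -0.03 with no floor, and that of the phosphatases and regulators 0.05. Over all genes, 328 were higher and 615 lower by 1.5-fold, against 187 and 332 with the higher floor and 2253 and 3066 with none, where dim probe sets enter.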
